A study of Mus musculus with 11 samples.

Results

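The 10 genes described here encode subunits of the mammalian SWI/SNF chromatin remodelling complexes. They were taken by gene symbol, with earlier results of these data known, from an RNA-seq count table of 12647 genes: Smarca4, Smarca2, Arid1a, Arid1b, Arid2, Pbrm1, Smarcb1, Smarcc1, Smarcd2 and Smarce1. All 10 had a row, and all 10 were among the 12625 genes tested. The cells were LSK cells (Lin-Sca1+Kit+), the bone marrow fraction that holds hematopoietic stem cells and multipotent progenitors, sorted from young C57BL/6 mice of 3 genotypes with 3 libraries each. The p53+/+ mice carried a humanized wild-type p53 allele (HUPKI), so that the controls are not unmodified C57BL/6 mice. The p53R248W/+ mice were heterozygous for the R248W substitution on that humanized allele, expressed from the endogenous Trp53 promoter, and the p53-/- mice were homozygous for loss of p53. The labels number the libraries of each genotype but do not state that each came from a separate mouse or how many mice were pooled, so the p-values measure the spread between these libraries, which may be technical. The names of the p53-/- libraries have another form than those of the other genotypes, and the labels do not state whether all were processed together. In comparisons with p53-/-, a difference in processing could not be told apart from genotype.

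SWI/SNF complexes use the energy of ATP to slide or evict nucleosomes, and so open enhancers and promoters. Each complex holds either of the alternative ATPases SMARCA4 (BRG1) and SMARCA2 (BRM) on a shared core that includes SMARCB1, SMARCC1, a SMARCD protein and SMARCE1. The canonical BAF complex adds ARID1A or ARID1B, the PBAF complex adds ARID2, the polybromo protein PBRM1, BRD7 and PHF10, and the non-canonical complex carries BRD9 and lacks SMARCB1 and SMARCE1. In blood formation these complexes are known for maintaining stem cells and for lineage choice, and several subunits are recurrently mutated in cancer.

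The clearest difference among the 10 subunits was in Pbrm1, whose mRNA in the p53-/- libraries was 0.426-fold that in the p53+/+ libraries. In the edgeR fit of all 9 libraries on genotype alone, none of the other subunits passed the threshold (adjusted p below 0.05) in any comparison. All 10 fitted differences between p53-/- and p53+/+ were below 0, as were those of 6321 of all 12625 genes tested. They ranged from -1.23 for Pbrm1 to -0.08 ± 0.16 (SE) for Smarcb1. Of the 10 genes, 7 have long transcripts, whose values moved together from library to library. Between p53R248W/+ and p53+/+ no subunit passed the threshold.

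Pbrm1 lies on the plus strand of chromosome 14, at chr14:31019138-31121592 (GRCm38, the mm10 build). Its RefSeq promoter window, from 250 bases before to 50 bases after the start at chr14:31018888-31019187, is shown because Pbrm1 carried the main difference and because a second gene starts inside it. Capitals mark the E-box CACGTG, a motif searched after the sequence had been read.

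Pbrm1 promoter: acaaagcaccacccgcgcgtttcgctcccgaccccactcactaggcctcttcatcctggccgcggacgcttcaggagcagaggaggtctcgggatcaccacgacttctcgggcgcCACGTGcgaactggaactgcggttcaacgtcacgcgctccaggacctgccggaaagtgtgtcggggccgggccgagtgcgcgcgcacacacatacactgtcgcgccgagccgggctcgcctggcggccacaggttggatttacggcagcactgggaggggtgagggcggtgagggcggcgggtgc

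The window held 35 CpG dinucleotides, against a median of 7 over the 32851 RefSeq promoter windows of the same length, and 6.95% of those windows held as many. CACGTG, which reads the same on both strands, occurred in 7.15% of all windows. Neither the ETS core CCGGAAG nor a p53 half-site was found in the Pbrm1 window on either strand, where 8.86% and 8.36% of all windows held them. The NF-Y box CCAAT (37.4% of all windows), the CHR element of cell cycle genes, TTTGAA (17.9%), and part of the sequence bound by NRF1, TGCGCA (7.76%), were not found there either. A match to these letters, or its absence, describes the window and not binding by a factor. The promoter of Smarca4, the subunit with the second-largest fitted difference, lies on the plus strand at chr9:21615919-21616218, with the gene at chr9:21616169-21704230, and is shown with its 3 copies of TGCGCA in capitals.

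Smarca4 promoter: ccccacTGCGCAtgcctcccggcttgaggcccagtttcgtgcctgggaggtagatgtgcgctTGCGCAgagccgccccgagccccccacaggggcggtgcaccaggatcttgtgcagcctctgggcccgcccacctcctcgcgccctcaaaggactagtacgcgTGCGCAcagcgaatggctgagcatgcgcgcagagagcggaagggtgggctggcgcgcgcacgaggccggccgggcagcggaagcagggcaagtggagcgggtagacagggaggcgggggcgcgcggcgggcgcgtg

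TGCGCA, also its own reverse complement, was present in the windows of Smarca4, Smarcc1 and Smarcb1. The Smarca4 window held 33 CpG dinucleotides.

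Libraries held between 18021375 and 29750702 counts (median 20116602), and each subunit had from 1019 to 7476 counts in every library. Counting error was therefore small beside the spread between libraries for the subunits with long transcripts. Smarcd2 and Smarce1 varied by only 2.75% and 4.29% between the p53+/+ libraries (SD as a percentage of the mean), where counting error is a larger part. The first p53R248W/+ library, the deepest, stood apart for long transcripts: its median log2 deviation over the 3746 genes of 4000 bases or more was -0.30. The calls of the fits are given with and without this library, whereas levels, deviations and correlations use all 9 libraries. All 12 LSK and stem cell marker genes listed were in the table, with a summed level of 3920 to 4980 CPM (counts scaled to library size) in p53+/+, 4270 to 4770 in p53R248W/+ and 4920 to 5470 in p53-/-. Of the markers of other cell types, the table held 6 of 7 for B cells (74.6 to 131 CPM in sum over the 9 libraries), 5 of 8 for T and NK cells (208 to 423 CPM), 5 of 8 for erythroid cells (707 to 1610 CPM), 6 of 6 for megakaryocytes (123 to 195 CPM), 11 of 11 for granulocytes and monocytes (1660 to 9080 CPM) and 2 of 6 for stroma and endothelium (45.4 to 155 CPM). The defining genes Pax5, Cd3e, Cd3d, Cd3g, Hba-a1, Hbb-bs, Hbb-bt, Cdh5, Col1a1, Cxcl12 and Lepr had no row in it. Cdkn1a, the classical p53 target that encodes the cell cycle inhibitor p21, was 67.0, 44.0 and 43.6 CPM in p53+/+, against 17.8, 8.27 and 10.9 CPM in p53-/-, a log2 fold change of -2.07 ± 0.29 (SE; adjusted p = 0.00914). Trp53 itself was 125, 207 and 376 CPM in p53+/+, 219, 240 and 235 CPM in p53R248W/+ and 129, 127 and 112 CPM in p53-/-. The first p53+/+ library therefore lay within the range of the p53-/- libraries at the Trp53 row (adjusted p = 0.0953). Reads from the human part of the HUPKI allele may not be counted on the mouse genome, and how this affected the row was not tested.

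Levels were compared between subunits in RPKM (CPM per kilobase of transcript). The short core subunits were the most abundant, with a mean over 9 libraries of 112 RPKM for Smarcb1 and 102 RPKM for Smarcd2, which placed them at percentiles 92.4 and 91.6 of all genes tested. Smarce1 followed at 39.5 RPKM, then Smarcc1 at 29.4, Smarca4 at 28.4, Pbrm1 at 20.6, Smarca2 at 16.7, Arid1a at 13.3, Arid1b at 11.5 and Arid2 at 7.54 RPKM. Smarcc1 and Smarca4 were not separated, since Smarcc1 was higher in only 5 of 9 libraries. Smarcb1 exceeded Smarcd2 in 8 libraries, Smarca4 exceeded Pbrm1 in 8, Pbrm1 exceeded Smarca2 in 7 and Arid1a exceeded Arid1b in 7, and each of the other neighbours kept its order in all 9 libraries. The order differed by genotype for Pbrm1, whose mean was 25.5 RPKM in p53+/+, above Smarca2 (19.9), and 10.9 RPKM in p53-/-, below Smarca2 (13.1) and Arid1a (11.2).

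**Figure D1:**
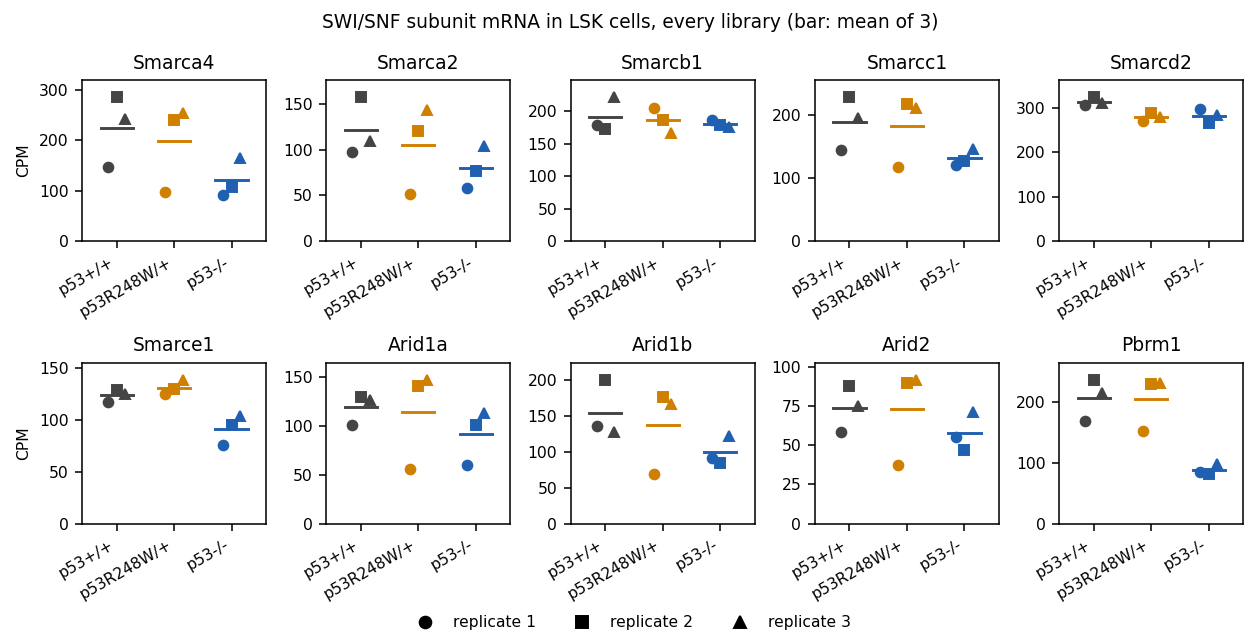
CPM of the 10 subunits in every library, by genotype, with 1 marker shape per replicate number and a bar at the mean of 3 libraries, each axis starting at 0. The 3 p53-/- libraries lie at 82.5 to 97.9 CPM for Pbrm1, below the 153 to 237 CPM of the other 6, whereas the first p53R248W/+ library (circle) has the lowest value of the 9 for Arid1a, Arid1b, Arid2, Smarca2 and Smarcc1.

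The PBAF subunits were examined first in p53-/- against p53+/+. PBRM1 carries several bromodomains that bind acetylated histones, and Pbrm1 was 170, 237 and 215 CPM in p53+/+, 153, 230 and 232 CPM in p53R248W/+ and 84.5, 82.5 and 97.9 CPM in p53-/-. All 3 p53-/- libraries were below all 6 others. In the edgeR quasi-likelihood fit the log2 fold change of p53-/- against p53+/+ was -1.23 ± 0.20 (SE; 95% interval -1.67 to -0.79; adjusted p = 0.0145), or 0.426-fold. Pbrm1 was the only 1 of 10 subunits called in this comparison, in which 2.25% of all genes were called lower and 3.5% were called in either direction. Against p53-/-, p53R248W/+ was higher by a log2 fold change of 1.22 ± 0.20 (95% interval 0.78 to 1.65; adjusted p = 0.0125), again as 1 of 10 subunits, with 2.34% of all genes called higher and 3.44% called in either direction. These comparisons share the p53-/- libraries and are not independent. The interval of the difference between p53R248W/+ and p53+/+ was -0.45 to 0.42 around a fitted value of -0.02.

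The size of the Pbrm1 difference did not rest on 1 library, whereas its call was lost in some fits with 1 library left out. With each library left out in turn, the log2 fold change of p53-/- against p53+/+ stayed between -1.36 and -1.13. The adjusted p was 0.0542 without the second p53+/+ library, 0.0733 without the third, 0.0586 without the first p53-/- library and 0.0607 without the second, and was below the threshold without any of the other 5. The fits that lost the call also called few genes: 0.364%, 0.293%, 0.419% and 0.309% of all genes, in that order. With all 9 libraries 3.5% were called. For p53R248W/+ against p53-/- the adjusted p was 0.0548 without the second p53-/- library, 0.0543 without the second p53R248W/+ library and 0.0539 without the third. These fits called 0.791%, 0.617% and 0.609% of all genes, in that order, against 3.44% with all 9 libraries. DESeq2 gave adjusted p = 1.18e-06 for p53-/- against p53+/+ with the same 9 libraries. It called 12.6% of the 12355 genes to which it gave an adjusted p in that comparison.

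Gnl3, which encodes the nucleolar GTP-binding protein nucleostemin, starts on the minus strand 14 bases from the Pbrm1 start, inside the window printed above, and was examined after the Pbrm1 values had been seen. Gnl3 was 127, 154 and 247 CPM in p53+/+, 162, 173 and 156 CPM in p53R248W/+ and 118, 144 and 129 CPM in p53-/-. Its p53-/- libraries overlapped the p53+/+ libraries, with a log2 fold change of -0.43 ± 0.22 (adjusted p = 0.271). With 1 library left out it ranged from -0.62 to -0.11, the last without the third p53+/+ library. The genes share 15 exon bases, and the sources do not state that the libraries kept strand, so reads on those bases cannot be assigned to either gene by strand.

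Arid2, the ARID subunit of PBAF, was at 58.4, 87.4 and 75.0 CPM in p53+/+, 37.5, 89.6 and 91.5 CPM in p53R248W/+ and 55.4, 46.8 and 71.3 CPM in p53-/-. The genotypes overlapped, and its log2 fold change of p53-/- against p53+/+ was -0.35 ± 0.31 (adjusted p = 0.525; -0.53 to -0.21 with 1 library left out). The ratio of Pbrm1 to Arid2 in RPKM was 3.23, 3.01 and 3.20 in p53+/+, 4.53, 2.86 and 2.82 in p53R248W/+ and 1.70, 1.96 and 1.53 in p53-/-. The p53-/- ratios were all below the other 6. On the log2 scale the ratio was 0.78 ± 0.18 in p53-/- and 1.65 ± 0.06 in p53+/+ (SD over 3 libraries), a difference of -0.87. The 2-sided exact permutation test gave p = 0.1, the smallest that 3 against 3 libraries allow, and 1.0 after Benjamini-Hochberg adjustment over the 10 ratio tests made. Both transcripts are long, and after a length offset per library the difference was -0.91.

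**Figure D2:**
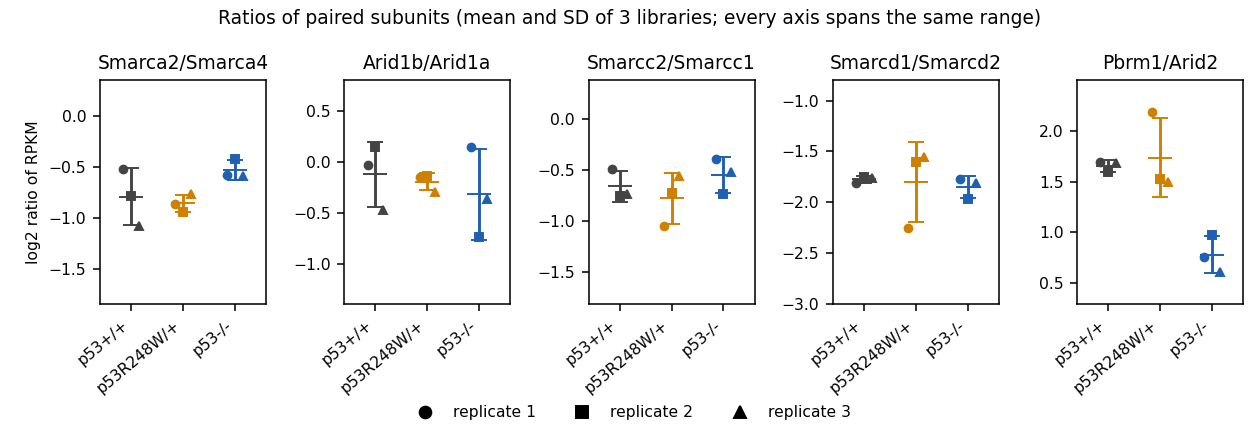
Log2 ratio of RPKM for 5 pairs of related or co-resident subunits in every library, with the mean and SD of 3 libraries per genotype, and every axis spanning the same range. Pbrm1/Arid2 is the pair in which the p53-/- libraries (0.61 to 0.97) lie below the other 6 (up to 2.18).

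The ATPases were examined next. Smarca4, which encodes BRG1, was 147, 285 and 242 CPM in p53+/+, 97.8, 241 and 255 CPM in p53R248W/+ and 90.6, 108 and 164 CPM in p53-/-. The third p53-/- library lay above the first p53+/+ library, so the groups overlapped. The log2 fold change of p53-/- against p53+/+ was -0.90 ± 0.36 (95% interval -1.67 to -0.12), which did not pass after adjustment (adjusted p = 0.163). Without the first p53R248W/+ library, the estimate was -0.88 with adjusted p = 0.0439, in a setting that called 11.7% of all genes. Smarca2, which encodes BRM, was 97.5, 157 and 109 CPM in p53+/+, 51.1, 120 and 143 CPM in p53R248W/+ and 57.9, 77.1 and 104 CPM in p53-/-. Its groups overlapped too, with a log2 fold change of -0.60 ± 0.34 (adjusted p = 0.311; -0.84 to -0.37 with 1 library left out). The log2 ratio of Smarca2 to Smarca4 was -0.53 ± 0.10 in p53-/-, -0.86 ± 0.09 in p53R248W/+ and -0.80 ± 0.28 in p53+/+, a difference of 0.27 between p53-/- and p53+/+ (0.13 to 0.41 with 1 library left out). The exact permutation p of 0.3 comes from a test of 3 against 3 libraries that cannot go below 0.1.

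Among the core subunits, Smarce1, which encodes the HMG-box subunit BAF57, was 117, 128 and 125 CPM in p53+/+, 125, 129 and 138 CPM in p53R248W/+ and 75.9, 94.7 and 103 CPM in p53-/-. All 3 p53-/- libraries were below all others, and the transcript is short. The log2 fold change was -0.43 ± 0.16 against p53+/+ (adjusted p = 0.134), and p53R248W/+ against p53-/- gave 0.52 ± 0.16 (adjusted p = 0.0918). DESeq2 called the second of these (0.51; adjusted p = 0.0234), in a setting that called 10.5% of the 12600 genes with an adjusted p. Smarcc1, which encodes the scaffold subunit BAF155, was 144, 227 and 195 CPM in p53+/+, 117, 216 and 211 CPM in p53R248W/+ and 120, 126 and 146 CPM in p53-/-, with a log2 fold change of -0.53 ± 0.24 (adjusted p = 0.215). Its first p53+/+ library fell among the p53-/- libraries, and Smarcc1 shares 123 exon bases with Dhx30 on the other strand.

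Smarcd2, which encodes BAF60B, known for its need in granulocyte formation, was 306, 323 and 311 CPM in p53+/+, 269, 289 and 278 CPM in p53R248W/+ and 297, 266 and 284 CPM in p53-/-. Both other genotypes lay below p53+/+ without overlap, but by a small amount: the log2 fold change was -0.17 ± 0.14 in p53R248W/+ and -0.15 ± 0.14 in p53-/- (adjusted p = 1.00 and 0.549). Smarcb1, the core subunit lost in rhabdoid tumours, was the least variable between genotypes, at 191 ± 26.4 CPM in p53+/+, 186 ± 18.9 CPM in p53R248W/+ and 180 ± 5.92 CPM in p53-/- (SD over 3 libraries). The interval of its p53-/- difference was -0.43 to 0.27. Smarcd2 and Smarce1 both lie on chromosome 11 with Trp53, 36.7 and 29.6 Mb away from it.

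The BAF subunits Arid1a and Arid1b encode the large alternative ARID proteins. Arid1a was 101, 130 and 127 CPM in p53+/+, 55.4, 141 and 147 CPM in p53R248W/+ and 59.6, 101 and 113 CPM in p53-/-, with overlapping groups and a log2 fold change of -0.39 ± 0.33 for p53-/- against p53+/+ (adjusted p = 0.516; -0.57 to -0.14 with 1 library left out). Arid1b was 136, 200 and 127 CPM in p53+/+, 69.1, 177 and 167 CPM in p53R248W/+ and 91.4, 83.8 and 122 CPM in p53-/-. Its p53-/- libraries were all below the p53+/+ libraries, the nearest by 127 to 122 CPM, and the log2 fold change was -0.64 ± 0.32 (adjusted p = 0.25; -0.82 to -0.41 with 1 library left out). Of the 10 subunits, 4 had p53-/- libraries all below p53+/+ (Pbrm1, Arid1b, Smarcd2 and Smarce1), where 16.0% of all genes did so, and 3 had an unadjusted p below 0.05 (Pbrm1, Smarca4 and Smarce1), where 23.4% of all genes did. The median log2 fold change of the 10 was -0.48, against -0.00 over all genes tested.

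For p53R248W/+ against p53+/+, edgeR called 0 of 10 subunits and 0.00792% of all genes, DESeq2 also called 0 of 10 subunits, and 0 subunits had an unadjusted p below 0.05 where 0.958% of all genes did. Fitted values ranged from -0.21 for Smarca2 to 0.09 for Smarce1, with a median of -0.06. Intervals were wide for the long transcripts, -0.96 to 0.60 for Smarca4 and -0.86 to 0.52 for Arid1b, and narrower for Smarcd2 (-0.47 to 0.14) and Smarce1 (-0.26 to 0.44). Smarcd2 was the 1 subunit with all p53R248W/+ libraries below p53+/+ (2.38% of all genes), and none had all above (2.66% of all genes). In p53R248W/+ against p53-/-, Pbrm1 and Smarce1 had no overlap and were higher (12.1% of all genes), and the same 2 had an unadjusted p below 0.05 (21.0% of all genes). Without the first p53R248W/+ library, 4 subunits were called in that comparison: Pbrm1 (1.37), Smarca4 (1.02), Arid1b (0.77) and Smarcc1 (0.69), each as a log2 fold change of p53R248W/+ over p53-/-. That setting called 12.3% of all genes, against 3.44% with all 9 libraries. Against p53+/+, 0 subunits were called without it.

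**Figure D3:**
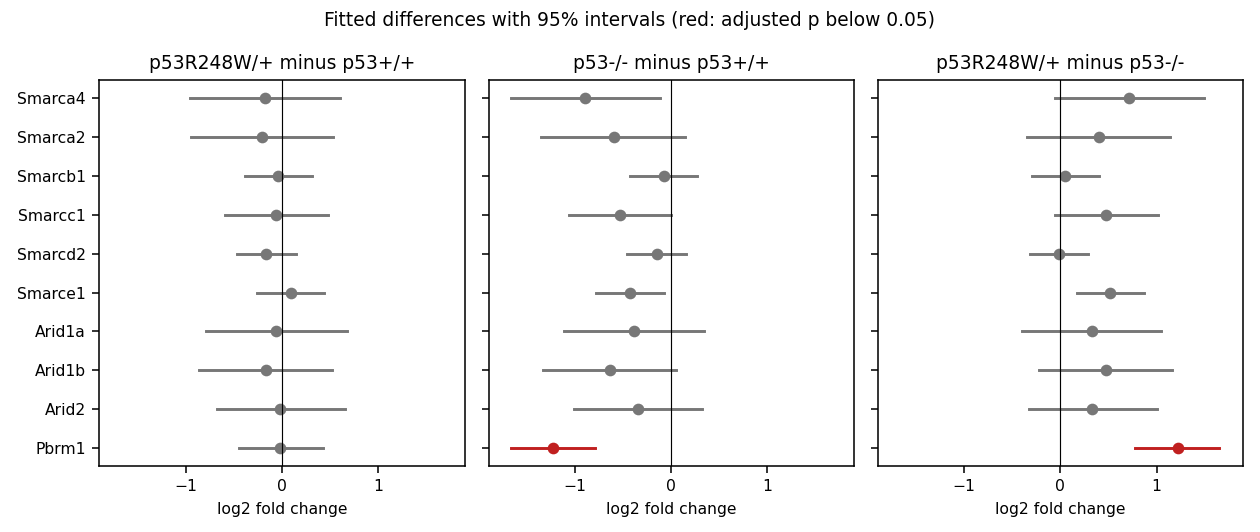
Fitted log2 fold changes of the 10 subunits in the 3 comparisons, points with 95% intervals, in red where the adjusted p was below 0.05. Only Pbrm1 is red, at -1.23 in p53-/- against p53+/+ and at 1.22 in p53R248W/+ against p53-/-.

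Transcript length, taken here as the gene length deposited with the counts, ran alongside these values. The transcripts of Smarcb1 (1657 bases), Smarcd2 (2869) and Smarce1 (2918) are short, and those of Smarcc1 (5673), Smarca2 (6086), Smarca4 (6376), Pbrm1 (8117), Arid1a (8175), Arid2 (9029) and Arid1b (11325) exceed 4000 bases. As the log2 deviation from the mean of the 9 libraries, the median of the 7 long subunits was -0.03, 0.62 and 0.27 in p53+/+, -0.80, 0.45 and 0.52 in p53R248W/+ and -0.73, -0.48 and -0.01 in p53-/-. The first p53R248W/+ library thus had the lowest long-subunit level of all 9, while its genotype partners were high. The 3746 genes of 4000 bases or more moved the same way in that library, by -0.30, and by -0.03, -0.21 and 0.08 in the p53-/- libraries. The median of the 3 short subunits stayed between -0.13 and 0.15. Singly they spread further, with Smarce1 at -0.58, -0.26 and -0.14 in p53-/- and from 0.05 to 0.29 in the other libraries. Pairs of long subunits had Pearson r from 0.58 to 0.98 over the 9 libraries (21 pairs, median 0.91), and the 24 pairs with a short subunit had r from -0.42 to 0.90 (median 0.45), a description in which all pairs share the same libraries.

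**Figure D4:**
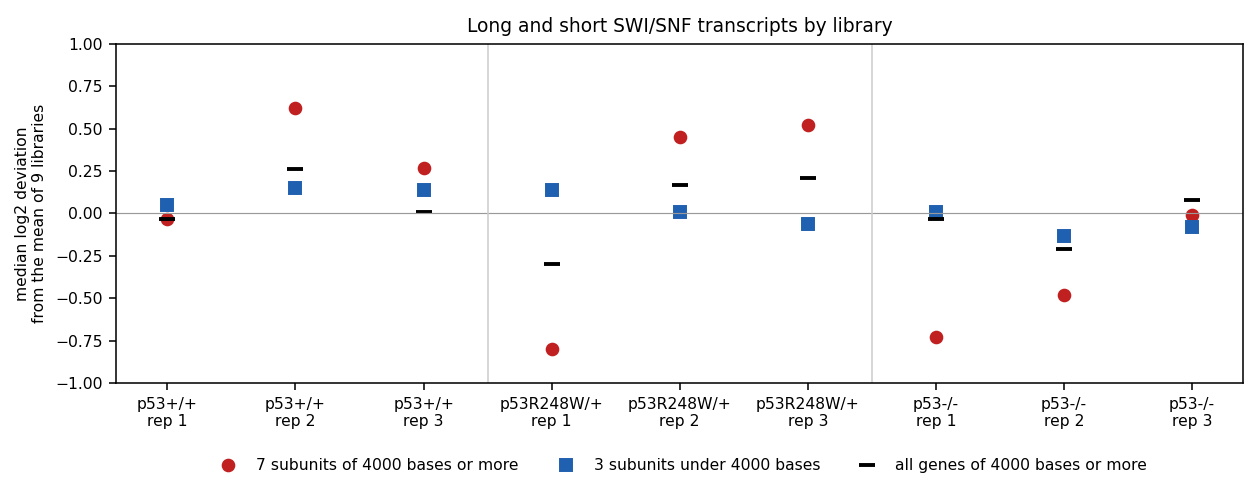
Median log2 deviation from the mean of 9 libraries, per library, for the 7 long subunits (circles), the 3 short subunits (squares) and all genes of 4000 bases or more (dashes). The medians of the long subunits range from -0.80 to 0.62 and those of the short ones from -0.13 to 0.15.

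Over all genes, the median log2 fold change of p53-/- against p53+/+ was 0.05 for transcripts under 1000 bases, 0.02 for 2000 to 4000 bases, -0.10 for 4000 to 8000 bases and -0.34 for the 542 genes of 8000 bases or more. Of those 542, 4.98% were called and 9.41% had a value as low as that of Pbrm1. Arid2 (-0.35) and Arid1a (-0.39) lay near the median of their length range, and Arid1b (-0.64) and Pbrm1 (-1.23) lay below it. A fit with a length offset per library, which removes each library's smooth trend with transcript length, gave Pbrm1 -0.93 ± 0.13 (adjusted p = 0.00454) and, for p53R248W/+ against p53-/-, 0.97 ± 0.13 (adjusted p = 0.00294). The other long subunits moved nearer to 0: Smarca4 to -0.68, Smarca2 to -0.40, Smarcc1 to -0.34, Arid1b to -0.21, Arid1a to -0.11 and Arid2 to -0.01. The short subunits kept about their values, with Smarce1 at -0.39 ± 0.14 (adjusted p = 0.0968). The median of the 10 became -0.28. With the same offset and without the first p53R248W/+ library, Smarca4 was called as well (-0.68; adjusted p = 0.0393). In p53-/- against p53+/+ that setting called 16.3% of all genes, and the offset with all 9 libraries called 9.44%.

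**Figure D5:**
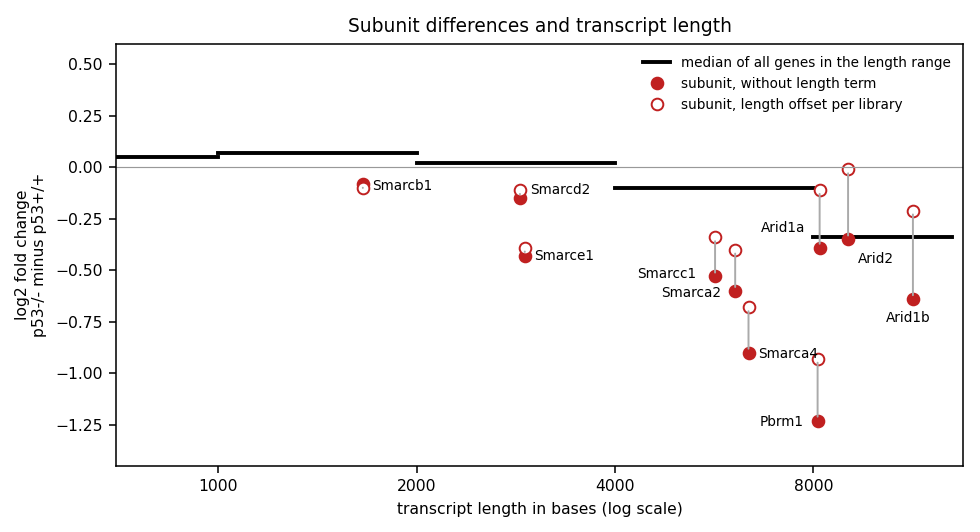
Log2 fold change of p53-/- against p53+/+ for the 10 subunits against transcript length on a log scale, without a length term (filled) and with the length offset per library (open), beside the median of all genes in each length range (black lines). Pbrm1 moves from -1.23 to -0.93 and Arid2 from -0.35 to -0.01.

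Other subunits of the same complexes were read from a list of further SWI/SNF genes, of which 18 were tested and Actl6b, Dpf1, Dpf3, Bicra and Bicral had no row under these symbols. Bicra and Bicral stood in the table under their older symbols Gltscr1 and Gltscr1l, which are among the 18. In p53-/- against p53+/+, 1 of 18 was called, 3 had an unadjusted p below 0.05, and the median log2 fold change was -0.19, beside 3.5% and 23.4% of all genes and a median of -0.00. All p53-/- libraries lay below p53+/+ for 6 of the 18 and above for 2, beside 2021 and 1944 of the 12625 genes tested. Brd7, Bcl7a, Phf10, Dpf2 and Bcl11a are named here after their values were seen. The called gene was Brd9, the bromodomain subunit of the non-canonical complex, at 44.2, 42.3 and 43.8 CPM in p53+/+, 29.7, 47.8 and 49.6 CPM in p53R248W/+ and 25.6, 19.7 and 21.1 CPM in p53-/-. Its p53-/- libraries were all below the other 6, with a log2 fold change of -0.97 ± 0.21 (adjusted p = 0.0356), and p53R248W/+ against p53-/- gave 0.94 ± 0.21 (adjusted p = 0.0395). The transcript is short (2428 bases) and the length offset left -0.94 (adjusted p = 0.0213). The call was lost without any 1 of the p53+/+ or p53-/- libraries and without the second p53R248W/+ library (-1.08 to -0.90; highest adjusted p = 0.14). The fits that lost it called from 0.293% (without the third p53+/+ library) to 3.95% (without the first) of all genes, against 3.5% with all libraries. In p53R248W/+ against p53-/- the Brd9 call was kept without the first p53R248W/+ library (1.11; adjusted p = 0.00408) and lost without any 1 of the other 8 (0.81 to 1.03). The fit that kept it called 12.3% of all genes, and those that lost it called from 0.609% to 3.01%. Brd7, the PBAF partner of Pbrm1 and Arid2, was 83.6, 107 and 120 CPM in p53+/+, 56.5, 110 and 105 CPM in p53R248W/+ and 47.0, 64.9 and 54.3 CPM in p53-/-. All p53-/- libraries of Brd7 were below p53+/+, with a log2 fold change of -0.90 ± 0.25 that missed the threshold (adjusted p = 0.0635). Brd7 passed it under the length offset (-0.87; adjusted p = 0.0454) and in DESeq2 (-0.89; adjusted p = 0.0121). The length offset called 9.44% of all genes, and DESeq2 called 12.6% of those to which it gave an adjusted p. Bcl7a, which also had an unadjusted p below 0.05, had a log2 fold change of -0.78 ± 0.27 in the edgeR fit (adjusted p = 0.117). Its p53-/- libraries were all below p53+/+. Phf10, the remaining PBAF gene, had a log2 fold change of -0.17 ± 0.18 with overlapping groups. Values above 0 were found for 7 of the 18, among them Dpf2 (0.21 ± 0.15) and Bcl11a (0.28 ± 0.17), whose p53-/- libraries were all above p53+/+ without passing the test. In RPKM, Actb was the highest of the list at 1590 and Bcl11b the lowest at 0.168. The ratios Arid1b/Arid1a, Smarcc2/Smarcc1 and Smarcd1/Smarcd2 differed between p53-/- and p53+/+ by -0.20, 0.12 and -0.08 on the log2 scale, with exact permutation p of 0.6, 0.6 and 0.3. With 1 library left out these differences ran from -0.43 to 0.01, 0.04 to 0.21 and -0.12 to -0.01, and with the length offset the first was -0.08.

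The genes whose log2 CPM followed Smarca4 most closely over the 9 libraries, among 11484 candidates, were Thrap3 (Pearson r = 0.990), Ascc2, Apc, Mprip and Eif4g3 (0.983). For Smarca2 they were Tet1 (0.994), Akap13, Zmiz1, Numa1 and Ap3d1 (0.988). Of these 10 genes, 9 have transcripts over 4000 bases, where 3746 of all 12625 genes tested have 4000 bases or more. All share the libraries.

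Values of other gene lists in the same libraries were as follows. The summed level of 22 proliferation genes was 5640 to 7130 CPM in p53+/+, 5730 to 6480 CPM in p53R248W/+ and 3960 to 5740 CPM in p53-/-, with 3 of 22 called lower in p53-/- against p53+/+ (2.25% of all genes). Of 15 stress and immediate early genes 4 were called lower, with sums of 4080 to 7120, 3410 to 9360 and 2660 to 4320 CPM in the same order. Sums of 11 granulocyte and monocyte genes were 2450 to 7320, 3920 to 9080 and 1660 to 2130 CPM. Of these genes 0 of 11 were called and 7 of 11 had an unadjusted p below 0.05, as did 23.4% of all genes. Sums of 5 erythroid genes were 715 to 937, 707 to 919 and 1290 to 1610 CPM, with 1 of 5 called higher, as were 158 of all 12625 genes tested. The proliferation and stress sums of p53-/- and p53+/+ overlapped, and the granulocyte and erythroid sums did not. The sums of 5 T and NK cell genes were 322 to 338 CPM in p53+/+, 331 to 423 in p53R248W/+ and 208 to 280 in p53-/-. Those of 2 stroma and endothelium genes were 109 to 150, 97.3 to 155 and 45.4 to 75.4 CPM, and those of 6 megakaryocyte genes 142 to 195, 147 to 152 and 123 to 140 CPM. In each of these lists p53-/- was below both other genotypes. The part of these lists in the subunit values was not tested, and in bulk LSK cells fewer cells of a type and less RNA per cell cannot be told apart.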

How the data were processed

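RNA was measured in 9 LSK libraries. The labels name the SMART-Seq v4 kit, whereas the study's methods give poly(A) selection on beads, fragmentation and random priming. Which preparation was used is not settled here, and neither source states that strand was kept. The authors deposited a table of raw read counts per gene with gene lengths, and their processing notes name STAR 2.5.2b, featureCounts of Subread 1.5.0, edgeR and mm10. The 9 deposited columns of the authors' own comparisons (log fold changes, p-values and FDR) were not used, and the 2 H3K27me3 ChIP-seq samples were not analysed here.

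Counts were tested with edgeR 4.0.16 (R 4.3.3): genes were filtered with filterByExpr (minimum count 10), scaled by TMM (factors 0.935 to 1.04) and fitted with glmQLFit and glmQLFTest on genotype over all 9 libraries, with Benjamini-Hochberg adjustment over 12625 genes and a threshold of 0.05. Totals of 18021375 to 29750702 counts leave the spread between libraries (common biological coefficient of variation 0.281) as the limit on precision. CPM and RPKM used TMM-scaled totals and the deposited gene lengths. The length offset was a loess curve (span 0.5) of each library's log2 CPM deviation on log2 length. Ratios were compared with exact permutation tests (SciPy 1.17.1). Code for the tests was tested on simulated data. Alternatives were DESeq2 1.42.0, other size factors, filters, a replicate block, the 6 libraries compared, the length offset and leaving out each library, and 2 more were added after seeing the data.

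Named genes were the 10 subunits, further subunits called in any comparison, those in the ratios, those with the highest and lowest RPKM, the 2 genes per direction with the smallest adjusted p in each other remodeller family where any passed, Trp53 and Cdkn1a, and the 5 closest correlates (average log2 CPM of at least 1) of Smarca4 and Smarca2. Members and lists were chosen with earlier results of these data known. Gene positions came from GENCODE M21 and promoter windows from RefSeq (GRCm38.p6), which held 9 windows for 8 of the 10 subunits, with no entry for Arid2 and Smarce1.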

Additional observations from a re-analysis of the deposited data

How the results depend on the processing

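Across the settings run, Pbrm1 kept its direction in p53-/- against p53+/+ and in p53R248W/+ against p53-/-, and no setting called a subunit in p53R248W/+ against p53+/+. The replicate block takes libraries of the same number as sharing a source. Under it the log2 fold change of Pbrm1 in p53-/- against p53+/+ was -1.22 (adjusted p = 0.00551). Smarca4 was called too (-0.87; adjusted p = 0.0405), making 2 subunits, as was Brd7 (-0.90; adjusted p = 0.0214). That setting called 6.99% of all genes in this comparison. Libraries of the same number had correlations of their deviations of 0.361, 0.543 and 0.0388 between p53+/+ and p53R248W/+ (numbers 1 to 3, where the labels' own names of the first 2 pairs share an ending and the crossed pairs of those libraries gave -0.476 and -0.385), 0.00567, -0.0946 and -0.0263 between p53+/+ and p53-/-, and 0.0678, -0.108 and 0.132 between p53R248W/+ and p53-/-. Not every pair exceeded 0.1, so the numbers were not taken as pairs. The p53-/- libraries carry names of another form, and whether they were processed apart from the other genotypes is not stated and was not tested. The counts of subunits and of genes called depended more on the setting, and the cause was not tested.

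In p53-/- against p53+/+, 442 genes were called. The number was 882 with the replicate block, 1192 with the length offset, 894 with the 6 libraries of the comparison, 1552 with DESeq2, and from 37 (without p53+/+ replicate 3) to 1485 (without p53R248W/+ replicate 1) with 1 library left out. Under the alternatives added after seeing the data it was 2056 with the length offset and without p53R248W/+ replicate 1, and 1369 without replicate 1 of every genotype, with 2 subunits called in each. Leaving out 1 library gave 0 to 2 subunits.

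In p53R248W/+ against p53-/-, 434 genes were called. The number was 672 with the replicate block, 883 with the length offset, 208 with the 6 libraries of the comparison, 1325 with DESeq2 (2 subunits), 1925 with the length offset and without p53R248W/+ replicate 1 (3 subunits), 1270 without replicate 1 of every genotype (2 subunits), and, with 1 library left out, from 77 (without p53R248W/+ replicate 3) to 1559 (without p53R248W/+ replicate 1), with 0 to 4 subunits. In p53R248W/+ against p53+/+ the 1 gene called became 0 with a filter of 10 counts in every library, 2 with the replicate block, 2 with the length offset and 6 with DESeq2.

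Fitted values near 0 changed sign, all without a call. For p53R248W/+ against p53+/+ the length offset gave Pbrm1 0.05. With that offset and without p53R248W/+ replicate 1, Smarca4 was 0.04, Smarca2 0.02, Arid1a 0.11, Arid2 0.14, Pbrm1 0.01 and Smarcc1 0.08. Without replicate 1 of every genotype, Arid1a was 0.15, Arid1b 0.06, Arid2 0.15, Pbrm1 0.03 and Smarcc1 0.01 in the same comparison, and Smarcb1 was -0.01 and Smarcd2 0.04 in p53R248W/+ against p53-/-. With 1 library left out, p53R248W/+ against p53+/+ ranged from -0.41 to 0.14 for Smarca4, -0.50 to 0.11 for Smarca2, -0.29 to 0.26 for Arid1a, -0.39 to 0.15 for Arid1b, -0.21 to 0.29 for Arid2, -0.14 to 0.15 for Pbrm1, -0.12 to 0.08 for Smarcb1 and -0.22 to 0.17 for Smarcc1. Smarcb1 ranged from -0.15 to 0.04 in p53-/- against p53+/+ and from -0.05 to 0.12 in p53R248W/+ against p53-/-.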

Other observations

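Other families of ATP-dependent remodellers had median log2 fold changes below 0 in p53-/- against p53+/+, and none of their genes was called by the edgeR fit. In the ISWI family, whose complexes space nucleosomes, 0 of 11 genes were called, 6 had an unadjusted p below 0.05, and the median log2 fold change was -0.72. DESeq2 called 5 of the 11 lower (Baz1a, Baz1b, Baz2b, Rsf1 and Smarca5, the last of which encodes the ISWI ATPase SNF2H), and with the length offset edgeR called 4 of them. Over all genes, 23.4% had an unadjusted p below 0.05 and edgeR with the length offset called 9.44%. DESeq2 called 12.6% of the genes to which it gave an adjusted p. These genes are named after their values were seen. In the CHD and NuRD list 0 of 20 were called, 8 had an unadjusted p below 0.05, DESeq2 called 2, edgeR with the length offset 0, and the median was -0.43. In the INO80, SRCAP and TIP60 list 0 of 31 were called, 6 had an unadjusted p below 0.05, DESeq2 called 2, edgeR with the length offset 1 (Brd8), and the median was -0.18. No ISWI, CHD or INO80 gene was called by either tool in p53R248W/+ against p53+/+, and 0 had an unadjusted p below 0.05.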
